A study of Mus musculus with 3 samples.

Results

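The genes described here are 37 genes of the DNA damage response and of DNA repair, chosen by name from a fixed list and grouped by pathway, out of 22908 genes that could be named on the array. All 37 had at least 1 named probe, and all 37 gave a signal well above background on all 3 arrays, so every one of them was among the 15240 genes tested. Homologous recombination, with the Fanconi anaemia pathway, held 16 of them, base excision repair 6, damage signalling 5, end joining 5, mismatch repair 3 and nucleotide excision repair 2. The list goes by gene name and sets no threshold on a measured value, but it was drawn up with earlier results of these data known.

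RNA came from tumours in the spleens of male mice at 10 weeks of age, with 2 tumours of the genotype LSD1 × p53+/− (labelled #2 and #3, together the LSD1 tumours) and 1 tumour of the genotype p53+/−. All 3 mice thus carried p53 haploinsufficiency, and the groups differed in the LSD1 element, whose construct, promoter and founder line are not given in the sources used here. Kdm1a encodes LSD1, a histone demethylase of lysine residues. The labels speak both of splenic tumour and of isolated splenic cells, no treatment was given, and 1 Cy3-labelled array was run per tumour.

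Cells meet DNA damage with sensors and kinases that halt the cell cycle and with repair pathways matched to the lesion. Homologous recombination copies an intact sister chromatid to mend a broken chromosome and acts in S and G2 phase, while end joining rejoins broken ends directly and also completes antigen receptor rearrangement in lymphocytes. Mismatch repair removes replication errors, base excision repair removes damaged or deaminated bases, and nucleotide excision repair removes bulky lesions. Many of the recombination and checkpoint genes are transcribed mainly in dividing cells, whereas several base and nucleotide excision genes are expressed in most cells.

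Values are signals relative to the array's 75th percentile, so that a value of 1 marks that percentile itself, and differences are ratios of these or their log2. The share of spots well above background was between 51.5% and 52.8% for the LSD1 tumours and 55.6% for the p53+/− tumour. With 3 arrays in all, their number limits how precise any comparison can be. Within an array, the 300 probes printed as 10 spots each had a median SD of 0.0387 to 0.0414 log2 units between spots, which measures the spots and not the animals. Kdm1a itself gave 6.57 and 4.91 in tumours #2 and #3 and 4.20 in the p53+/− tumour, and Trp53 gave 0.748 and 0.916 against 1.13 (limma, adjusted p = 0.972 for Kdm1a and 0.969 for Trp53). The Kdm1a signal was highest in tumour #2, and a transgene without the probe's target would not be seen by it.

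Most of the repair genes gave a higher signal in both LSD1 tumours than in the p53+/− tumour. Of the 37, 28 were higher in both (75.7%), 1 was lower in both (2.7%) and 8 lay on both sides of the p53+/− tumour, while of all 15240 tested genes 38.9% were higher and 27.8% lower in both. The split of 28 higher and 1 lower became 26 and 2 with normexp background correction, where 37.7% of all genes were higher and 28.3% lower. With quantile normalization it was 24 and 4, against 34.6% and 32.4% of all genes. Centring on the median of all genes also gave 24 and 4, against 33% and 33% of all genes. In the authors' value table it was 19 and 6, against 23.3% and 42.7% of all genes. A set of 19 genes was higher in both LSD1 tumours under all 5 of these scalings: Rad54l, Bard1, Brip1, Fancd2, Fanci, Palb2, Blm, Nbn, Rad50, Xrcc2, Xrcc3, Chek1, Chek2, Xrcc5, Xrcc6, Msh6, Exo1, Ogg1 and Apex1. These are the same 19 as in the authors' value table. That table and the centring differ from the main scaling only by 1 factor per array, so the 5 scalings are not independent.

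By size, 6 of the 37 genes (16.2%) were at least 2-fold higher in both LSD1 tumours, against 3.48% of all genes, and 0 were at least 2-fold lower in both, against 5.38%. The 6 were the nuclease gene Exo1, the checkpoint kinase gene Chek1 and the recombination genes Xrcc3, Fancd2, Brip1 and Xrcc2. Just inside this threshold lay Xrcc2, whose smaller difference was 2.05-fold, and just outside it lay Apex1 with 1.97-fold. With normexp, 2 genes passed (Exo1 and Xrcc3), and Exo1 alone did in the authors' value table. The share of all genes passing under these other scalings is not given here, and the 3.48% holds for the main scaling only. In tumour #2 alone 8 of the 37 (21.6%) were at least 2-fold higher, against 11.7% of all genes, and in tumour #3 alone 17 of the 37 (45.9%), against 15.2%. The median difference of the 37 genes, less that of all tested genes, was 0.45 log2 units in tumour #2 and 0.76 in tumour #3. Both tumours were set against the same p53 array, which has no replicate, so a low value on that array would enter both differences.

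None of the 37 genes passed the test. limma called 0 of them and 0 of 15240 genes at an adjusted p under 0.05 (a background of 0%), with adjusted p between 0.967 and 1 for the 37. At an unadjusted p under 0.05 limma gave 1 of the 37, Exo1, and 568 of all genes (3.73%). The SE of the log2 difference lay between 0.478 and 1.31 for these genes. With 1 tumour against 2 the fit had 1 residual degree of freedom, and it takes the lone p53 tumour to vary like the LSD1 tumours. Each SE combines the spread between the LSD1 tumours with a spread pooled over all tested genes. This pooling gave 3.27 degrees of freedom in total, and no spread among p53+/− tumours entered. The labels do not say whether #2 and #3 number mice or lines, and the p-values speak only for these samples.

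**Figure D1:**
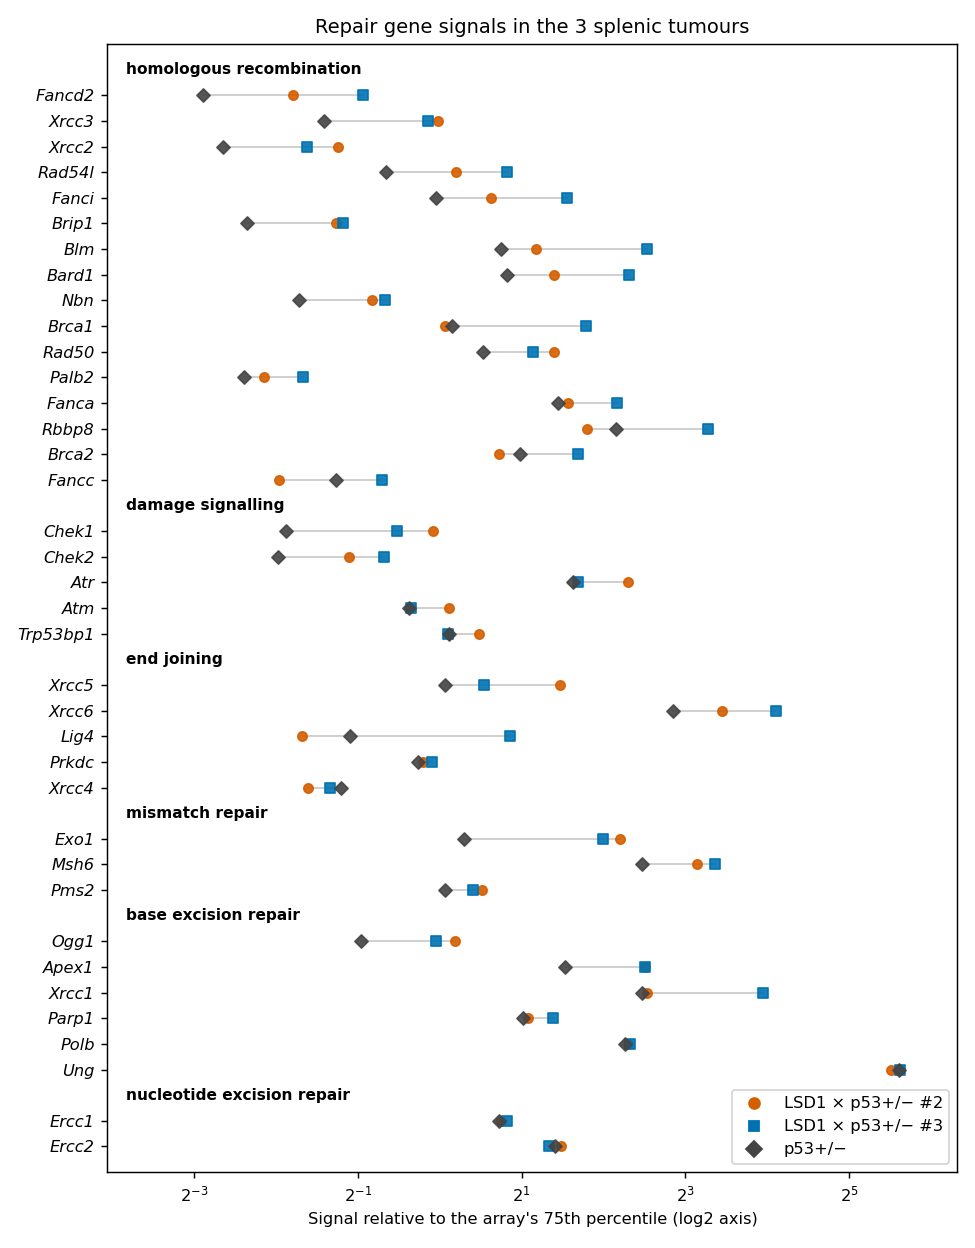
Signal of each of the 37 repair genes relative to the array's 75th percentile (log2 axis), 1 point per tumour, grouped by pathway and ordered within a pathway by the mean log2 difference of the LSD1 tumours from the p53+/− tumour. The p53+/− tumour is the lowest point for 28 genes, among them Exo1 (4.61 and 3.98 in tumours #2 and #3, against 1.23), and the highest for Xrcc4.

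In homologous recombination 12 of 16 genes were higher in both LSD1 tumours and 0 lower in both, against 38.9% and 27.8% of all genes. In the authors' value table the counts were 11 and 0, against 23.3% and 42.7% of all genes. The pathway's median difference less that of all genes was 0.57 log2 units in tumour #2 and 0.99 in tumour #3. Xrcc3, needed for the repair of breaks and crosslinks by recombination, gave 0.988 and 0.909 in tumours #2 and #3 and 0.377 in the p53+/− tumour. The LSD1 tumours lay close together and 2.62-fold and 2.41-fold above the p53+/− tumour (mean log2 difference 1.33 ± 0.48, SE; limma, adjusted p = 0.967). Xrcc2, of the same repair pathway, gave 0.423 and 0.326 against 0.160 in the p53+/− tumour, 2.65-fold and 2.05-fold higher.

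The Fanconi anaemia genes Fancd2 and Fanci encode the pair of proteins that is ubiquitinated at crosslinks between DNA strands. Fancd2 gave 0.288 and 0.524 in tumours #2 and #3 and 0.135 in the p53+/− tumour, 2.14-fold and 3.88-fold higher (mean log2 difference 1.53 ± 0.63, SE; limma, adjusted p = 0.967). Fanci gave 1.55 and 2.93 against 0.971, and in both genes tumour #3 was the highest of the 3. Brip1, the helicase that binds BRCA1, gave 0.415 and 0.442 in tumours #2 and #3 and 0.196 in the p53+/− tumour. Its LSD1 tumours differed from each other by 1.07-fold and from the p53+/− tumour by 2.12-fold and 2.26-fold, and a second probe gave larger differences of 3.17-fold and 3.38-fold. Fanca, a core complex gene, was 1.09-fold and 1.65-fold higher.

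Most of the other recombination genes were higher in both LSD1 tumours as well. Nbn, of the complex that binds breaks and recruits ATM, gave 0.563 and 0.629 in tumours #2 and #3 and 0.303 in the p53+/− tumour, 1.86-fold and 2.08-fold higher. Rad50, its partner in that complex, was 1.82-fold and 1.52-fold higher, and 1.78-fold and 1.12-fold by its other probe. Rad54l, a motor protein of strand exchange, gave 1.15 and 1.77 in tumours #2 and #3 and 0.632 in the p53+/− tumour. Bard1, the partner of BRCA1, was 1.49-fold and 2.82-fold higher, and Palb2, which links BRCA1 to BRCA2, 1.19-fold and 1.65-fold.

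For Brca1 and Brca2 the direction in tumour #2 depended on the probe. By its brightest probe Brca1 gave 1.04 and 3.46 in tumours #2 and #3 and 1.11 in the p53+/− tumour, so that tumour #3 stood 3.12-fold above the p53+/− tumour and tumour #2 lay 1.07-fold below it. By its other probe Brca1 was 1.67-fold and 1.61-fold higher in tumours #2 and #3. Brca2 was 1.19-fold lower in tumour #2 and 1.64-fold higher in tumour #3 by its brightest probe. One further probe placed it 1.19-fold and 2.43-fold higher in tumours #2 and #3, and another 1.75-fold and 2.09-fold. Every detected probe of both genes placed tumour #3 above the p53+/− tumour.

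Further recombination genes were more than 2-fold apart between the LSD1 tumours. Blm, the RecQ helicase of Bloom syndrome, gave 2.26 and 5.76 in tumours #2 and #3 and 1.69 in the p53+/− tumour, 1.34-fold and 3.42-fold higher. By its other probe Blm was 1.18-fold and 2.33-fold higher. Rbbp8, which encodes the end resection factor CtIP, gave 3.49 and 9.68 against 4.43, so that the p53+/− tumour lay between the LSD1 tumours. Fancc, of the Fanconi core complex, gave 0.257 and 0.611 against 0.416, and its other probe was lower in both LSD1 tumours, by 2.04-fold and 1.11-fold. In all 3 genes tumour #3 exceeded tumour #2 by the brightest probe, by 2.55-fold, 2.77-fold and 2.38-fold.

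**Figure D2:**
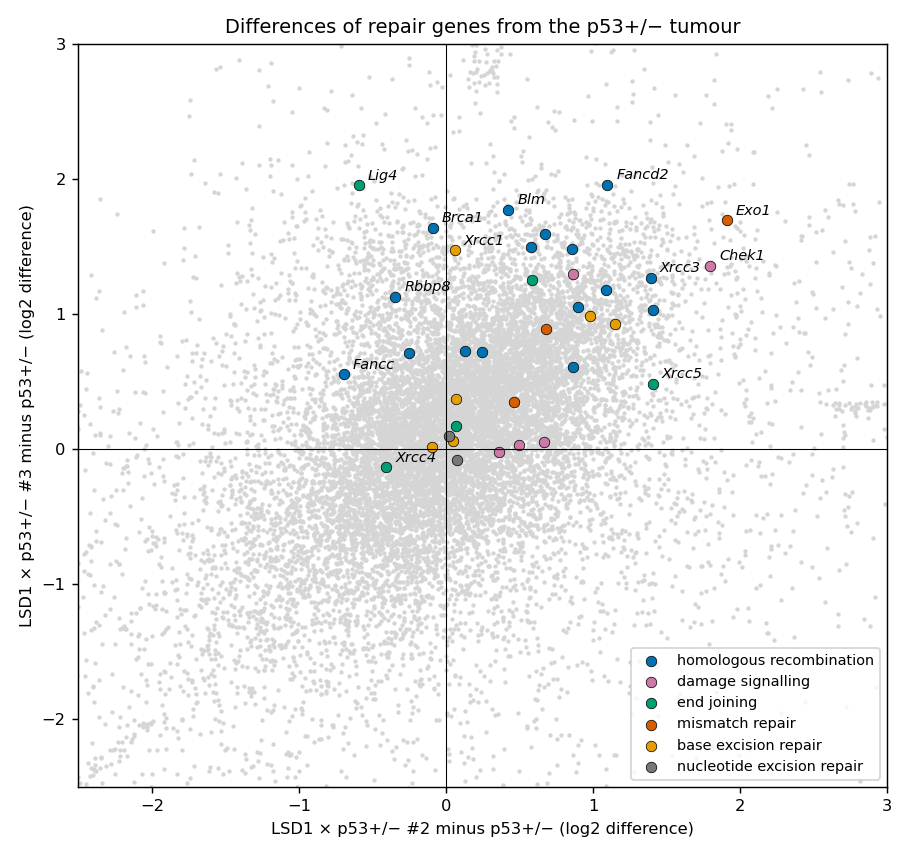
Log2 difference of each gene from the p53+/− tumour in tumour #2 (x axis) and tumour #3 (y axis), repair genes coloured by pathway and all tested genes in grey (912 genes lie beyond the axes). Both axes share the p53 array; 28 repair genes lie in the upper right quadrant and Xrcc4 alone of them in the lower left.

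Among the damage signalling genes the checkpoint kinases differed more than the apical kinases in each LSD1 tumour. In tumour #2, however, Chek2 (1.82-fold) was close to Atr (1.59-fold). The median difference of the 5 genes, less that of all genes, was 0.61 log2 units in tumour #2 and -0.11 in tumour #3. Chek1, the kinase that restrains cells with stalled replication, gave 0.942 and 0.696 in tumours #2 and #3 and 0.272 in the p53+/− tumour, 3.47-fold and 2.56-fold higher (mean log2 difference 1.58 ± 0.52, SE; limma, adjusted p = 0.967). Its second probe gave 7.28-fold and 4.25-fold, in the same direction. Chek2, the kinase activated by ATM, gave 0.462 and 0.625 against 0.254 in the p53+/− tumour, 1.82-fold and 2.46-fold higher. For both kinases the p53+/− tumour was lowest under every scaling run.

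The apical kinases ATM and ATR, which answer to breaks and to replication stress, differed less. Atr gave 4.92 and 3.21 in tumours #2 and #3 and 3.10 in the p53+/− tumour, and Atm 1.08 and 0.784 against 0.768. In Atr and Atm, tumour #2 was thus 1.59-fold and 1.41-fold above the p53+/− tumour, while tumour #3 was within 1.04-fold of it, and that small difference turned with centring and in the authors' value table for both genes, and for Atr with quantile normalization. Trp53bp1, which encodes the chromatin reader 53BP1 that favours end joining, gave 1.39 and 1.07 against 1.08. Its 2 other detected probes gave other signs, one lower in both LSD1 tumours and one higher in both without being above background in tumour #2 or the p53+/− tumour, so no direction is given for it.

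In end joining, 3 of 5 genes were higher in both LSD1 tumours and 1 lower, against 38.9% and 27.8% of all genes. In the authors' value table the counts were 2 and 2, against 23.3% and 42.7% of all genes. Xrcc5 and Xrcc6 encode Ku80 and Ku70, the ring that binds broken ends. Xrcc5 gave 2.76 and 1.46 in tumours #2 and #3 and 1.04 in the p53+/− tumour, and Xrcc6 gave 10.9 and 17.2 against 7.23. Both Ku genes were higher in both tumours, but Xrcc5 was highest in tumour #2 (2.65-fold and 1.40-fold) and Xrcc6 in tumour #3 (1.5-fold and 2.38-fold). Prkdc, the DNA-dependent kinase that Ku recruits, gave 0.870 and 0.937 against 0.830, a difference of 1.05-fold and 1.13-fold that turned in the authors' value table.

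The genes of the ligase step did not follow the Ku genes. Xrcc4, the scaffold of the ligase, gave 0.328 and 0.395 in tumours #2 and #3 and 0.434 in the p53+/− tumour, 1.32-fold and 1.1-fold lower, and was lower in both under every scaling run. Its ligase partner Lig4 gave 0.310 and 1.81 against 0.468, 1.51-fold lower in tumour #2 and 3.87-fold higher in tumour #3. The LSD1 tumours were 5.84-fold apart in Lig4, the widest gap among the 37 genes, and the second Lig4 probe gave nearly the same differences, 1.68-fold lower and 3.84-fold higher. This spread between the LSD1 tumours left Lig4 with the largest error of the set (mean log2 difference 0.68 ± 1.31, SE; limma, adjusted p = 0.981).

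All 3 mismatch repair genes were higher in both LSD1 tumours, against 38.9% of all genes. Still higher in both were 2 of the 3 in the authors' value table, against 23.3% of all genes. Exo1, the exonuclease of mismatch repair and of end resection, gave 4.61 and 3.98 in tumours #2 and #3 and 1.23 in the p53+/− tumour. This was 3.75-fold and 3.24-fold higher, the largest of the 37 when genes are ranked by the smaller of both differences, and the LSD1 tumours differed from each other by 1.16-fold (mean log2 difference 1.80 ± 0.49, SE; limma, adjusted p = 0.967). Msh6, of the complex that recognises mispaired bases, gave 8.85 and 10.3 against 5.52, 1.60-fold and 1.86-fold higher. Pms2, of the complex that cuts the new strand, gave 1.43 and 1.33 against 1.04, and was the one whose sign turned in tumour #3 in the authors' value table.

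Base excision repair was divided. Apex1, the endonuclease that cuts at abasic sites, gave 5.67 and 5.69 in tumours #2 and #3 and 2.88 in the p53+/− tumour, 1.97-fold and 1.98-fold higher, and its 2 other probes were higher in both tumours too. Ogg1, the glycosylase for oxidised guanine, gave 1.13 and 0.972 against 0.512, 2.21-fold and 1.90-fold higher. The LSD1 tumours lay within 1.17-fold of each other in both genes. Xrcc1, the scaffold of strand break repair, gave 5.78 and 15.4 against 5.54, so that tumour #3 alone stood away from the others.

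The remaining base excision genes were close to level. Parp1, the sensor of strand breaks, gave 2.12 and 2.61 in tumours #2 and #3 and 2.02 in the p53+/− tumour. Polb, the gap-filling polymerase, gave 4.94 and 4.99 against 4.78, and Ung, the uracil glycosylase, 45.4 and 49.2 against 48.6. The differences of Polb and Ung were 1.07-fold or less, and with quantile normalization, centring or the authors' value table both genes were lower in both LSD1 tumours. In nucleotide excision repair Ercc1, of the nuclease that cuts beside the lesion, gave 1.67 and 1.76 against 1.65, and Ercc2, a helicase of the transcription factor TFIIH, 2.80 and 2.51 against 2.65. Over the scalings Ercc1 changed direction in both LSD1 tumours. Ercc2 was lower in tumour #3 under every scaling run, and in tumour #2 its sign turned in the authors' value table.

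**Figure D3:**
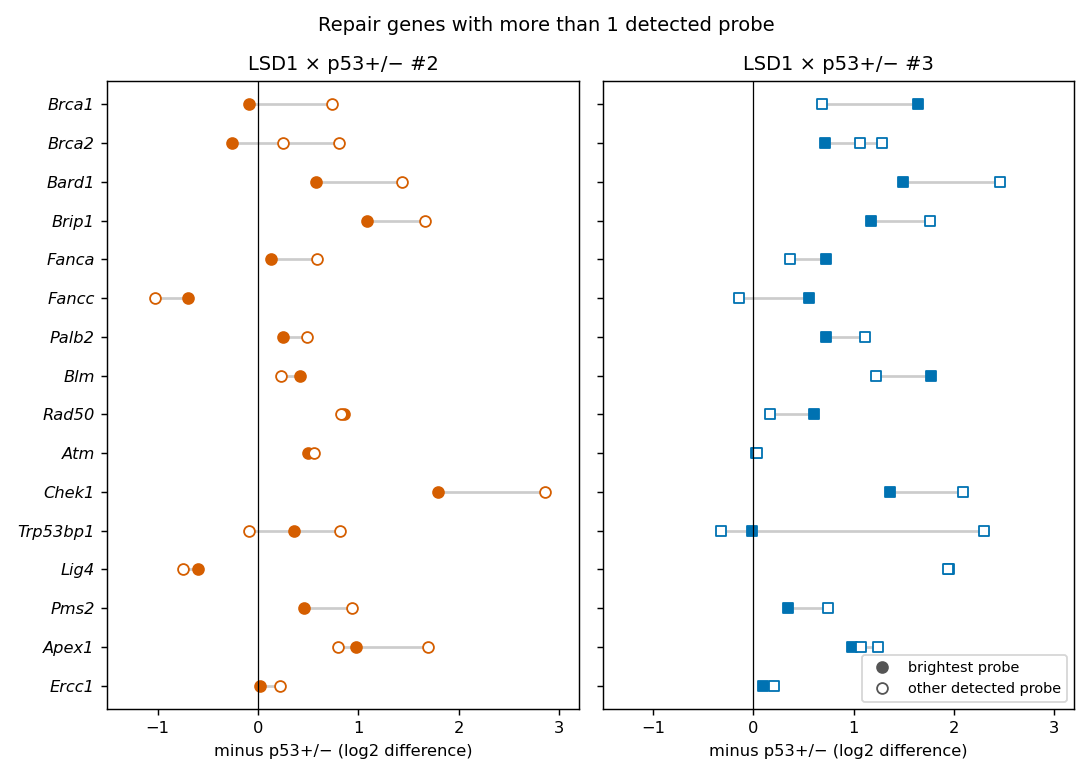
Log2 difference from the p53+/− tumour for every detected probe of the 16 repair genes with more than 1 detected probe, tumour #2 at left and tumour #3 at right, with the brightest probe filled. Probes of Lig4 and Atm nearly coincide, while those of Brca1 and Brca2 fall on both sides of 0 in tumour #2 and those of Trp53bp1 lie far apart in tumour #3.

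A total of 18 of the 37 genes had 1 named probe, and for them no second reading exists. Of 19 further probes of the other genes that were above background on at least 1 array, 13 had the same sign in both LSD1 tumours as the probe used. The 6 others belonged to Brca1, Brca2, Fancc and Trp53bp1. When all detected probes of a gene were averaged, 31 genes were higher in both LSD1 tumours and 1 lower, against 38.3% and 28.2% of all genes. Of the 37, 8 were then at least 2-fold higher in both. By the brightest probe 3.48% of all genes were, and their share with averaged probes is not given here.

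The LSD1 tumours themselves were at least 2-fold apart in 6 of the 37 genes (16.2%), against 25.1% of all tested genes. By the brightest probe, the 6 were Lig4, Brca1, Rbbp8, Xrcc1, Blm and Fancc, and tumour #3 was the higher in all of them. Of all genes, 14% were at least 2-fold higher in tumour #3 and 11.1% in tumour #2. Other detected probes gave 0.12 and 0.81 in tumours #2 and #3 for Lig4 and 0.227 and 0.220 for Brca1. They gave 2.12 and 4.20 for Blm and 0.0758 and 0.14 for Fancc, and no other probe of Rbbp8 or Xrcc1 was detected. At any size tumour #3 was above tumour #2 in 25 of the 37 genes (67.6%), against 55.8% of all genes. In recombination this held for 13 of 16 and in damage signalling for 1 of 5 genes. There is 1 array per tumour, so these differences have no replicate check.

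Promoters are shown for the 4 genes highest in both LSD1 tumours among those with a promoter entry, and for the 1 gene lower in both, because they stand at either end of the set. Of the 37 genes 29 matched, and Exo1, Fancd2, Nbn, Polb, Prkdc, Rad50, Rbbp8 and Xrcc2 did not. Each sequence is from RefSeq, build GRCm38.p6, 300 bases written 5′ to 3′ on the gene's strand from 250 bases before the annotated start to 50 after it, and the first entry of a gene was used. Capitals mark CCAAT (the NF-Y motif), TTTGAA or TTCGAA (cell cycle homology region) and TTTGGCGG (E2F motif), each on either strand.
Chek1, chr9:36726609-36726908 (minus strand): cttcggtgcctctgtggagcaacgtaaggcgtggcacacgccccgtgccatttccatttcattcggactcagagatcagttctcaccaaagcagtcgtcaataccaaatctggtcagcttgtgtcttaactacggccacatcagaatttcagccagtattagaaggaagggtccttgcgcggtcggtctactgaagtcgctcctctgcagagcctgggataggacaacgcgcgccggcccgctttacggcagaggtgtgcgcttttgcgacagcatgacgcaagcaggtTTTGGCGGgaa
Xrcc3, chr12:111813830-111814129 (minus strand): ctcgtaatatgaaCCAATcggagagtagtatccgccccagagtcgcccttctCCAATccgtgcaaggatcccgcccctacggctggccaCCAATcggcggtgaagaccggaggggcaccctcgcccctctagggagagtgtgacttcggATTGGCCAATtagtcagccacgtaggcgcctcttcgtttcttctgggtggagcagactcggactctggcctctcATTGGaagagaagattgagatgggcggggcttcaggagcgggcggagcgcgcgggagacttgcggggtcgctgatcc
Brip1, chr11:86201144-86201443 (minus strand): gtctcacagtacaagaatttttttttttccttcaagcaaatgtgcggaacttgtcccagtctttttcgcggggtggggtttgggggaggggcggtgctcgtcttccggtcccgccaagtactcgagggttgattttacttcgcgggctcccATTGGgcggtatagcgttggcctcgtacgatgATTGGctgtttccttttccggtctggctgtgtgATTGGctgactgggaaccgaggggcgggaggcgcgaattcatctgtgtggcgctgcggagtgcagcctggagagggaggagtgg
Apex1, chr14:50924699-50924998 (plus strand): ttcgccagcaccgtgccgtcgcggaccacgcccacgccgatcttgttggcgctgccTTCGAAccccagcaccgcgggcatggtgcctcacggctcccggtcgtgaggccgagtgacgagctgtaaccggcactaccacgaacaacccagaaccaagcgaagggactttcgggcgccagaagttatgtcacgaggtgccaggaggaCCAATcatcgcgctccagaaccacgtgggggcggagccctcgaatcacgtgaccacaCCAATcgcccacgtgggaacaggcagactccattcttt
Xrcc4, chr13:90089559-90089858 (minus strand): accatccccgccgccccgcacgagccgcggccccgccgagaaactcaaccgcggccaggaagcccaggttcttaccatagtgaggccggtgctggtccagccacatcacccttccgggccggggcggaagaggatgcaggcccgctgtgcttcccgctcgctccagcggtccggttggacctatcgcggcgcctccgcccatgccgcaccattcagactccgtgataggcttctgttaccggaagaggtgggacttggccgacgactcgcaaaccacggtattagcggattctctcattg

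Xrcc3 held 6 matches to CCAAT, on both strands and with 2 of them adjoining, Brip1 held 3 and Apex1 held 2 beside 1 TTCGAA, Chek1 held 1 TTTGGCGG in the bases after its start, and Xrcc4 held none of the letters searched. CCAAT was found in 18 of the 29 promoters (62.1%), against 37.9% of 27025 promoters of the same length. TTTGAA or TTCGAA was found in 3 of 29 (10.3%), against 19.4%. TTTGGCGC or TTTCGCGC, letters of the E2F motif, were found in 0 of 29, against 0.833% of all. TTTGGCGG or TTTCCCGC, other letters of the E2F motif, were added after the 5 promoters shown had been read. Among the 24 members whose promoters are not shown they were found in 5 (20.8%), against 1.65% of all, namely in Bard1, Brca2, Chek2, Msh6 and Xrcc6. No motif overlapped another of a different kind in the promoters shown. A match is a run of letters and not a measured site, and the lack of one says only that these letters are not in this window.

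Another 74 genes of the same pathways, taken from a list that was likewise drawn up with earlier results of these data known, were set beside the 37. All 74 were tested, and 47 were higher in both LSD1 tumours (63.5%) and 11 lower (14.9%), against 38.9% and 27.8% of all genes. In the authors' value table the counts were 37 and 24, against 23.3% and 42.7% of all genes. For these 74 genes limma called 0 at an adjusted p under 0.05 and gave 1 an unadjusted p under 0.05. At least 2-fold higher in both were 12 of the 74 (16.2%), against 3.48% of all genes, and at least 2-fold lower 0, against 5.38%. Their median difference less that of all genes was 0.23 log2 units in tumour #2 and 0.45 in tumour #3, smaller than that of the 37 in each tumour.

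Among the highest of these by the smaller difference were Eme1, a subunit of a junction-cutting nuclease, and Tipin, of the complex that protects replication forks. Eme1 gave 1.45 and 1.30 in tumours #2 and #3 and 0.445 in the p53+/− tumour, and Tipin 16.9 and 20.7 against 6.58. For both genes the LSD1 tumours lay above the p53+/− tumour. The 3 lowest were the glycosylase gene Neil1 (1.69-fold and 2.19-fold lower in tumours #2 and #3), the nucleotide excision nuclease gene Ercc5 (1.75-fold and 1.5-fold lower) and Polm, a polymerase of end joining (2.31-fold and 1.38-fold lower).

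Markers of dividing cells were higher in the LSD1 tumours along with the repair genes. Of 22 such markers 21 were higher in both LSD1 tumours and 0 lower, against 38.9% and 27.8% of all genes. All 22 were above background on every array. The markers' median difference less that of all genes was 0.84 log2 units in tumour #2 and 1.43 in tumour #3. Their summed relative signal was 366 and 651 in tumours #2 and #3 and 228 in the p53+/− tumour. Mki67, the marker of cycling cells, gave 48.5 and 113 against 39.5, and Mcm2, of the replicative helicase, 10.5 and 9.66 against 3.71. These markers were chosen with earlier results of these data known, and their part in the repair gene differences was not tested.

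Cell type markers also differed between the tumours, in directions that did not all match. Of 7 T cell markers measured, 6 were higher in tumour #2 and 0 in tumour #3, with summed signals of 215 and 45.2, against 79.4 in the p53+/− tumour. All 8 B cell markers were lower in both LSD1 tumours (sums of 39.3 and 140, against 262), and 1 of them was not above background in tumour #3. All 8 erythroid markers were higher in tumour #3 and 1 in tumour #2 (sums of 140 and 434, against 197), and all 6 neutrophil precursor markers were higher in both (sums of 52.9 and 55.8, against 20.9). Of 5 plasma cell, 6 macrophage, 4 NK cell, 5 dendritic cell and 5 stromal markers, 3, 3, 2, 4 and 4 were lower in both. Of all genes, 38.9% were higher and 27.8% lower in both. Among the lower markers Sdc1 was not above background in tumour #2, and Ncr1, Xcr1 and Cd209a were above it in neither LSD1 tumour. Every one of these 9 cell types kept other markers above background in each tumour, so the label of splenic tissue has its lymphoid, myeloid and stromal markers. In such bulk RNA a change in the number of cells of a type cannot be told apart from a change in RNA per cell, and the part of cell composition in the repair gene differences was not tested.

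**Figure D4:**
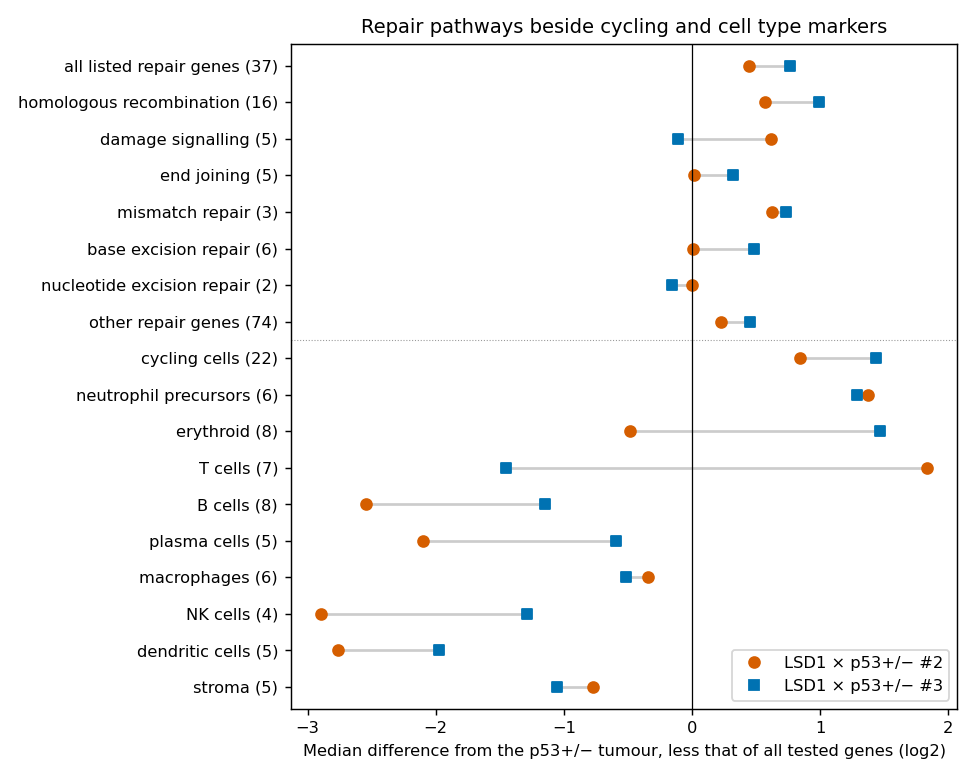
Median log2 difference from the p53+/− tumour, less the median of all tested genes, for the repair pathways (above the dotted line) and for markers of cycling cells and cell types (below it), with the number of genes in brackets, in tumour #2 (circles) and tumour #3 (squares). Homologous recombination (0.57 and 0.99) and mismatch repair (0.63 and 0.73) lie above 0 in both tumours, below the cycling markers (0.84 and 1.43), and nucleotide excision repair lies at or below 0.

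Slide and scan could be set apart only in part. Slide 1, read in scan 1, held tumour #3 together with the p53+/− tumour, and slide 2, read in scan 2, held tumour #2. With slide as a block the comparison reduces to tumour #3 against the p53+/− tumour. On that slide 34 of the 37 genes were higher in tumour #3 and 3 lower, against 58.1% and 41.9% of all genes. At least 2-fold higher were 17 of the 37, against 15.2% of all genes. Across slides 30 were higher in tumour #2 and 7 lower, against 53% and 47% of all genes. Here 8 were at least 2-fold higher, against 11.7% of all genes. For tumour #2, slide and tumour cannot be told apart.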

How the data were processed

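Total RNA of 3 splenic tumours was Cy3-labelled, and each sample was run on its own Agilent array, as the labels' protocols describe. The deposited files come from Agilent Feature Extraction (version 11.5.1.1), as the file headers state. The processed signal is a linear intensity from which the authors' software had subtracted background and spatial trends of the array, per the file headers. Arrays were not scaled to each other in these values. The deposited series table holds the same intensities times 1 factor per array, whose basis is not stated. Per-spot flags were deposited with the scans, per the file headers, and no spot was saturated.

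The processed signal was divided by the array's 75th percentile (712 and 554 for tumours #2 and #3, 608 for the p53+/− tumour) and taken as log2, leaving out outlier spots (113 to 128 per array) and averaging replicate spots of a probe. Probes were named through their RefSeq accessions with a gene table of assembly GRCm38.p6, which named 32994 of 56605 probes. Probe coordinates are not given, since the array was designed on another build (mm9). A gene was represented by its brightest probe (mean log2 signal over the arrays) and was tested if well above background on at least 1 array. Groups were compared with limma 3.58.1 in R 4.3.3 with Benjamini-Hochberg adjustment over all tested genes at 0.05, and the steps were tested on simulated data. The counts by size required the brighter side to be above background: both LSD1 arrays for a higher gene, the p53 array for a lower one. All adjusted p-values are limma's. Alternatives were normexp with an offset of 50 (on the median spot signal, since a mean was not in the files), quantile normalization, the authors' value table, other filters and probes, slide as a block, leaving out each LSD1 tumour, and, chosen after seeing the data, centring on the median of all genes.

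The 37 genes and all lists were chosen with earlier results of these data known. Full values were given, by rule, for up to 6 recombination genes and up to 4 genes of each other pathway with the largest smaller difference of the same sign, and for genes 2-fold or more apart within the LSD1 pair. Of the other repair genes the rule took the 3 highest and 3 lowest. One of the 3 highest is not reported here. Values of the remaining members are given in brief, and Mki67 and Mcm2 were named after their values were seen.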

Additional observations from a re-analysis of the deposited data

How the results depend on the processing

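No result here passed limma's threshold, under the main setting or under any alternative in which limma could be run, so the alternatives bear on directions and sizes. Counts of genes at least 2-fold higher in both LSD1 tumours (6) became 2 with normexp and 1 in the authors' value table. The share of all genes at that size under these alternatives is not given here. Slide as a block is the same comparison as leaving out tumour #2. It gave 17 genes at least 2-fold higher in tumour #3 alone, against 15.2% of all genes. Leaving out tumour #3 gave 8 in tumour #2 alone, against 11.7% of all genes. Genes lower in both (1, against 27.8% of all genes) became 2 with normexp, 4 with quantile normalization, 4 after centring and 6 in the authors' value table. The shares of all genes lower in both were then 28.3%, 32.4%, 33% and 42.7%, in that order. In tumour #3 alone 3 were lower and in tumour #2 alone 7, against 41.9% and 47% of all genes. The authors' table moves the median difference of all genes to -0.16 and -0.20 in tumours #2 and #3, from 0.05 and 0.16 with the 75th percentile. Median differences less that of all genes were, with a tumour left out, 0.57 to 0.99 for homologous recombination, 0.0147 to 0.323 for end joining and 0.011 to 0.486 for base excision repair, against 0.88, 0.56 and 0.37 with both. The 0.56 of end joining comes from Lig4 (mean log2 difference 0.68), which was lower in tumour #2 and higher in tumour #3. The median of damage signalling (0.23) turned to -0.11 without tumour #2 and with slide as a block, and was 0.61 without tumour #3. End joining stood at 0.32 with slide as a block, mismatch repair (0.66) at 0.50 with quantile normalization and 0.53 without a filter on dim probes, and nucleotide excision repair (-0.10) at -0.23 without that filter. Some single genes turned, and none of them had passed the test. In the authors' value table these were Brca2 (-0.0602 log2), Atm (-0.0246), Trp53bp1 (-0.12), Prkdc (-0.17), Parp1 (-0.0722), Polb (-0.24) and Ercc1 (-0.23). With quantile normalization Polb (-0.14) and Ercc1 (-0.0288) turned, with centring Polb (-0.0521) and Ercc1 (-0.0471), and with normexp Ercc1 (-0.00796) and Ercc2 (0.0481). With slide as a block Fancc (0.56), Trp53bp1 (-0.018) and Ung (0.0177) turned. With a tumour left out, values ran between -0.0905 and 1.64 for Brca1, -0.26 and 0.71 for Brca2, -0.70 and 0.56 for Fancc, -0.34 and 1.13 for Rbbp8, -0.018 and 0.36 for Trp53bp1, -0.59 and 1.95 for Lig4, -0.0972 and 0.0177 for Ung and -0.0793 and 0.0769 for Ercc2. Leaving out a tumour, or taking slide as a block, leaves 1 array on each side, which gives values and no test, and the causes of the other shifts were not tested. The lone p53+/− tumour could not be left out. No paired analysis was possible because the groups share no replicate number. All 37 genes were well above background on every array, but the 4 genes that dropped below 2-fold with normexp (Fancd2, Xrcc2, Brip1 and Chek1, at 0.135, 0.160, 0.196 and 0.272 in the p53+/− tumour) were the dimmest of the 6 on that array, and the part of background in their differences was not tested.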
